A study of Mus musculus with 18 samples.

Results

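The 9 genes Nanog, Klf2, Klf4, Klf5, Esrrb, Nr0b1, Tfcp2l1, Tbx3 and Zfp42 encode the transcription factors usually taken to mark naive pluripotency, and they were found by their symbols among the 45706 genes counted in the series. All 9 were among the 16619 genes with enough counts to be tested. RNA-seq was performed on mouse induced pluripotent stem cells (iPSCs) that were wild-type (wt) or knocked out (KO) for Hmga2, a chromatin protein of the high mobility group, to see how gene expression changes when the cells leave the naive state. There were 6 groups of 3 libraries, namely wt, KO clone #1 and KO clone #2, each at 0 h and at 24 h of induction into epiblast-like cells (EpiLCs). The labels name no wt clone. The wt libraries are taken to come from 1 clone, since the study speaks of 3 cell clones for these profiles. Each KO line was 1 clone, so that genotype and clone cannot be told apart within a comparison of 2 lines. At 0 h all lines were grown on inactivated fibroblast feeders with leukemia inhibitory factor (LIF) and the 2i inhibitors of the kinases MEK and GSK3. At 24 h they were on a basement membrane matrix with Activin A and bFGF, without LIF and 2i. The feeder layer thus differed between the time points together with the medium. The labels name the replicates of a group as biological ones.

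In naive cells these factors form a network whose members activate one another, together with the general pluripotency factors Pou5f1 and Sox2. LIF acts through Stat3 on Klf4 and Tfcp2l1, the inhibition of GSK3 relieves repression by Tcf7l1 at Esrrb, and the inhibition of MEK sustains Klf2. When these signals are withdrawn and FGF and Activin are supplied, the network is taken apart and the cells pass through a formative state that resembles the early post-implantation epiblast.

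The libraries held 3466436 to 23872837 counts, and 3 counts corresponded to 0.116 to 0.984 CPM (the counts of a gene relative to the scaled library total). Hmga2 was lower at 0 h in the KO#2-labelled libraries than in wt libraries (log2 difference -1.90 ± 0.62, adjusted p = 0.0230), while the difference of KO#1 (-1.71 ± 0.63, adjusted p = 0.124) did not pass the test. At 24 h the Hmga2 differences were -1.36 ± 0.64 for KO#1 (adjusted p = 0.220) and -0.039 ± 0.60 for KO#2 (adjusted p = 0.966). Every KO library lay below every wt library of its time except replicate 1 at 24 h labelled KO#2, which held 10.5 CPM of Hmga2 against 3.02 and 3.48 CPM in the other two and 5.51 to 5.93 CPM in wt libraries. Since the Hmga2 RNA of that library goes against its label, the libraries of this clone are named by their label throughout. The study separately shows a western blot of Hmga2 protein in wt and KO cells. Over 24 h Hmga2 itself changed by -1.61 ± 0.62 on the log2 scale in wt libraries (adjusted p = 0.0362), so the wt reference was lower at 24 h than at 0 h. Whether the counted reads lie in the deleted part of the gene is not given in the sources used here. The share of counts in protein-coding genes was 41.3 to 63.4% in the wt and KO#1 libraries at 24 h and 82.3 to 84.7% in the KO#2-labelled libraries at 24 h. All pluripotent cell markers looked at (Pou5f1, Sox2, Sall4 and Epcam) were detected in every group, with summed levels at 0 h of 1683 to 2492 CPM per library in wt, 1608 to 1863 CPM in KO#1 and 928 to 1077 CPM under the KO#2 label, and at 24 h of 1651 to 2188, 1422 to 2099 and 1272 to 1382 CPM. The summed level of 8 fibroblast genes was 110.0 to 898 CPM per library at 0 h. It was 19.0 to 51.8 CPM in wt and KO#1 libraries at 24 h and 71.0 to 219 CPM in the KO#2-labelled libraries at 24 h. In bulk RNA, fewer cells of a type and less RNA per cell cannot be told apart.

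The promoters of the factors were read from the RefSeq table of the GRCm38.p6 build, which held 7 of the 9 members. The windows covered 250 bases before the start site and 50 after it, and the 250 bases before it are shown for Nanog and Tfcp2l1, which fell steeply on induction, and for Nr0b1 and Zfp42, which did not. Capitals mark matches to the 6 short motifs searched on both strands. The Nanog window lies at chr6:122707239-122707488 on the plus strand, that of Tfcp2l1 at chr1:118627695-118627944 on the plus strand, that of Nr0b1 at chrX:86191525-86191774 on the plus strand and that of Zfp42 at chr8:43307010-43307259 on the minus strand.
Nanog: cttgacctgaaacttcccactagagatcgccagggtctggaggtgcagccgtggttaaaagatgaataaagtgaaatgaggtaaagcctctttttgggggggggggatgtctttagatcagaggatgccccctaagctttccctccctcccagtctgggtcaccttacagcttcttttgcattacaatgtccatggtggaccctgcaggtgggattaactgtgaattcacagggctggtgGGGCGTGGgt
Tfcp2l1: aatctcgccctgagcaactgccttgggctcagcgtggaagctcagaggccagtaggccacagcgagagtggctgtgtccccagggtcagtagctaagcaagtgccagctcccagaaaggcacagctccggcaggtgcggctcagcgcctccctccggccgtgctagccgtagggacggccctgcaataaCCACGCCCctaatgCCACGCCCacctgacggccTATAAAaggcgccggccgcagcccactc
Nr0b1: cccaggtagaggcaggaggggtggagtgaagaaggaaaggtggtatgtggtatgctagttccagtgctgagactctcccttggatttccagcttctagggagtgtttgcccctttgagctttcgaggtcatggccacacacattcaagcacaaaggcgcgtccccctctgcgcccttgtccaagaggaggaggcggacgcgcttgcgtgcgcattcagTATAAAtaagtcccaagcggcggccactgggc
Zfp42: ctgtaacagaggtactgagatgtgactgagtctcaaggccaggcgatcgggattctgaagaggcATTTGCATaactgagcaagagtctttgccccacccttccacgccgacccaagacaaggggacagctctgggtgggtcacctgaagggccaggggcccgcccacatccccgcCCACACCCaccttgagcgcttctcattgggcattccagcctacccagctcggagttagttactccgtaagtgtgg
The Klf-type motif GGGNGTGG was matched at -10 to -3 from the Nanog start site and again at 24 to 31, beyond the bases shown. It was matched at -61 to -54 and at -47 to -40 in the Tfcp2l1 window, both on the minus strand, and at -75 to -68 in the Zfp42 window, also on the minus strand. Of the 32851 promoter windows in the table, 17.6% held it. The octamer ATGCAAAT, which Pou5f1 can bind, was matched in the Zfp42 window at -186 to -179 on the minus strand, against 1.74% of all windows. A TATAAA box was matched at -32 to -27 in Nr0b1 and at -28 to -23 in Tfcp2l1, against 13.6% of all windows. The motifs TCAAGGTCA (Esrrb, 0.423% of all windows), TTCCNGGAA (Stat3, 1.15%) and CTTTGAT (Tcf, 3.73%) were matched in none of the 7 member windows, and the Klf2, Klf4 and Esrrb windows held none of the 6 motifs. No 2 of the matches in the member windows overlapped. The Klf-type letters were thus matched in Nanog and Tfcp2l1, which fell steeply, and in Zfp42, which did not. They were not matched in Klf2, Klf4 and Esrrb or in Nr0b1. Such letters are a description of sequence and not of binding.

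On induction, 7 of the 9 factors fell steeply in all 3 lines, Nr0b1 fell slightly in wt cells, and Zfp42 passed the test in no line. In wt cells 8 of 9 members were called lower at 24 h at an adjusted p under 0.05 (the quasi-likelihood test of edgeR, adjusted after Benjamini and Hochberg over all genes tested, as for every adjusted p here), against 24.7% of all genes tested. In KO#1 the count was 7 of 9, against 20.6%, and in the KO#2-labelled libraries it was 7 of 9, against 13.3%. The positive changes were those of Nr0b1 and Zfp42 in KO#1, neither of which passed the test. An unadjusted p under 0.05 was given by 8 members in wt cells, 7 in KO#1 and 8 under the KO#2 label, and DESeq2 called 8, 7 and 7. The called changes in wt cells ran from -0.59 for Nr0b1 to -7.36 for Tbx3 on the log2 scale, while the median log2 change over all genes tested was 0.030 for wt, 0.0037 for KO#1 and -0.028 for KO#2.

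**Figure D1:**
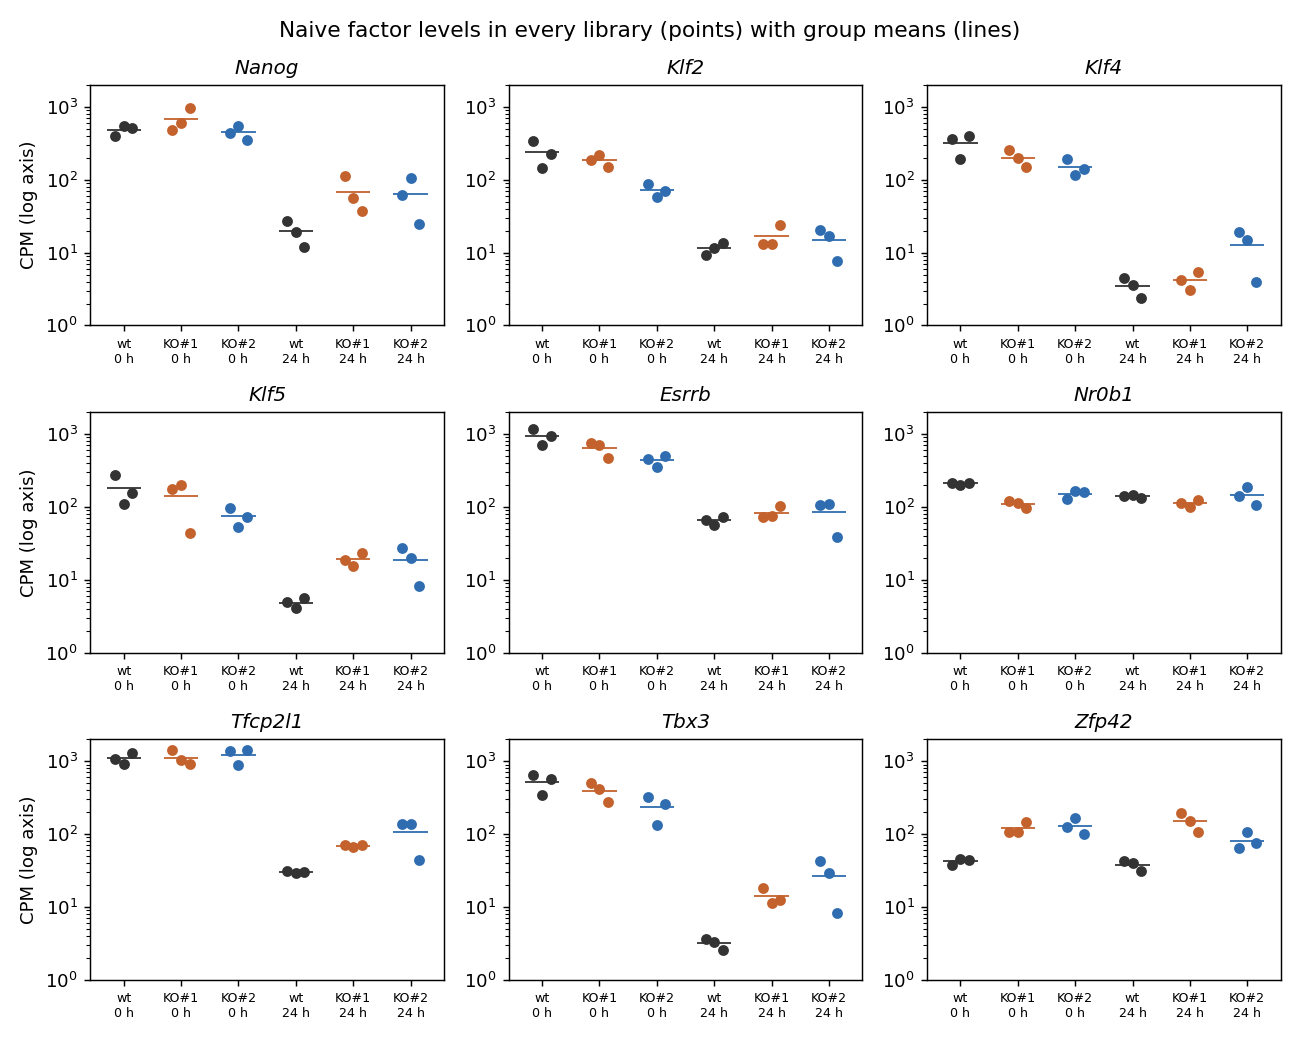
Level of each of the 9 factors in every library (CPM, log axis), with 3 points and a line at the mean for each of the 6 groups. The 24 h points lie below all 0 h points of the same line for 7 factors, and the 24 h levels of Nr0b1 and Zfp42 stay within the order of size of their 0 h levels.

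Nanog is the homeodomain factor that stabilises naive self-renewal (chr6:122707489-122714633, GRCm38). In wt libraries it was measured at 393, 540.2 and 512 CPM at 0 h and 27.5, 19.0 and 12.0 CPM at 24 h, in order of the replicate numbers. The KO#1 libraries held 475, 593 and 958 CPM at 0 h and 113, 56.5 and 36.8 CPM at 24 h. In those labelled KO#2 the values were 433, 552 and 352 CPM and 60.8, 106 and 24.6 CPM. The 0 h levels of the 3 lines overlapped. At 24 h every KO#1 library was above every wt library, and replicate 3 of the KO#2-labelled libraries lay within the wt range. Nanog changed over 24 h by -4.63 ± 0.53 on the log2 scale in the wt line (24.7-fold, adjusted p = 4.45e-06), -3.29 ± 0.50 in KO#1 (adjusted p = 1.07e-04) and -2.80 ± 0.49 in the KO#2-labelled libraries (adjusted p = 5.02e-04). The residual level, the 24 h CPM as a percentage of the mean 0 h CPM of the same line, was 4.05% ± 1.61 (SD, n = 3) in the wt line, 10.2% ± 5.87 in KO#1 and 14.3% ± 9.19 in the KO#2-labelled libraries. For every gene the SD of a residual covers the 24 h libraries alone and leaves out the spread at 0 h. At 24 h Nanog was higher than in wt cells in KO#1 (log2 difference 1.82 ± 0.48, adjusted p = 0.0187) and in the KO#2-labelled libraries (1.71 ± 0.47, adjusted p = 0.00926). The first call was lost without KO#1 24 h replicate 1 (1.30, adjusted p = 0.112), wt 24 h replicate 2 (1.84, adjusted p = 0.0650) or wt 24 h replicate 3 (1.61, adjusted p = 0.0822), and the second without replicate 2 of the 24 h KO#2-labelled libraries (1.13, adjusted p = 0.0771). The processed pseudogenes Nanog-ps1 and Nanog-ps2 held at most 3 counts in any library.

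Klf2, Klf4 and Klf5 are Kruppel-like zinc finger factors with largely shared DNA sequence preference, and they can replace one another in part in keeping cells naive. Klf2 (chr8:72319033-72321656) stood at 343, 146 and 227 CPM in wt libraries at 0 h and at 9.21, 11.7 and 13.7 CPM at 24 h. KO#1 libraries gave 184, 221 and 149 CPM and then 13.3, 13.0 and 23.9 CPM. Those labelled KO#2 gave 86.5, 58.6 and 69.9 CPM and then 20.3, 17.0 and 7.56 CPM. The called differences between the lines lay at the start, where the 0 h KO#2-labelled libraries lay below all other 0 h libraries, and the 24 h levels of the 3 lines overlapped. Its change over 24 h was -4.37 ± 0.41 on the log2 scale in the wt line (adjusted p = 5.25e-07), -3.46 ± 0.39 in KO#1 (adjusted p = 6.29e-06) and -2.26 ± 0.37 in the KO#2-labelled libraries (adjusted p = 2.76e-04). At 0 h the KO#2-labelled libraries were lower than wt libraries (-1.73 ± 0.36, adjusted p = 0.00174) and lower than KO#1 libraries (-1.36 ± 0.36, adjusted p = 0.0103), the latter call being lost with library sizes alone (-1.03, adjusted p = 0.0753). At 24 h the difference from wt was 0.37 ± 0.36 (adjusted p = 0.437) for KO#2 and 0.54 ± 0.36 (adjusted p = 0.438) for KO#1. The residual level of Klf2 was 4.84% ± 0.945 in the wt line, 9.06% ± 3.36 in KO#1 and 20.9% ± 9.24 in the KO#2-labelled libraries.

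Klf4 (chr4:55527143-55532466, minus strand), a target of LIF signalling and a reprogramming factor, gave 363, 195 and 397 CPM in wt libraries at 0 h and 4.46, 3.61 and 2.35 CPM at 24 h. KO#1 libraries held 255, 196 and 151 CPM and 4.19, 3.07 and 5.41 CPM. The KO#2-labelled libraries held 195, 115 and 140.2 CPM and 18.9, 14.9 and 4.00 CPM, of which the last value, replicate 3, lay within the wt range and the other two lay above every wt and KO#1 library at 24 h. Only 36 to 76 counts per library stood behind the wt values at 24 h. Klf4 changed over 24 h by -6.52 ± 0.54 on the log2 scale in the wt line (adjusted p = 1.88e-07), -5.55 ± 0.51 in KO#1 (adjusted p = 1.07e-06) and -3.57 ± 0.46 in the KO#2-labelled libraries (adjusted p = 3.36e-05). At 24 h it was higher in the KO#2-labelled libraries than in wt (1.86 ± 0.45, adjusted p = 0.00407) and than in KO#1 (1.56 ± 0.45, adjusted p = 0.0116), and KO#1 differed from wt by 0.30 ± 0.46 (adjusted p = 0.796). The difference between the KO clones was lost without KO#1 24 h replicate 2 (1.36, adjusted p = 0.0544) or without replicate 1 of the 24 h KO#2-labelled libraries (1.15, adjusted p = 0.0710). At 0 h Klf4 was lower in the KO#2-labelled libraries than in wt by a difference close to the threshold (-1.09 ± 0.42, adjusted p = 0.0486). That call was lost when any of replicates 1 to 3 labelled KO#2, wt replicate 1 or wt replicate 3 was left out (differences of -1.32 to -0.89, adjusted p up to 0.155). The residual level was 1.09% ± 0.334 in the wt line, 2.11% ± 0.586 in KO#1 and 8.40% ± 5.15 in the KO#2-labelled libraries.

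Klf5 (chr14:99298691-99315036), which also acts in trophectoderm, was the least abundant Klf member per length at 0 h. Its wt libraries held 275, 111 and 157 CPM at 0 h and 4.93, 4.11 and 5.56 CPM at 24 h. The KO#1 libraries held 176, 199 and 43.7 CPM and 18.6, 15.6 and 23.3 CPM, with the 0 h value of replicate 3 below those of the other two. KO#2-labelled libraries held 96.5, 52.8 and 73.0 CPM and 27.5, 20.1 and 8.21 CPM. All 6 KO libraries at 24 h lay above all wt libraries. Its change over 24 h was -5.20 ± 0.56 on the log2 scale in the wt line (adjusted p = 2.44e-06), -2.86 ± 0.50 in KO#1 (adjusted p = 3.39e-04) and -2.00 ± 0.48 in the KO#2-labelled libraries (adjusted p = 0.00553). Klf5 was higher than in wt at 24 h in KO#1 (1.97 ± 0.50, adjusted p = 0.0158), a call lost without wt 24 h replicate 1 (1.99, adjusted p = 0.0569) or wt 24 h replicate 2 (1.90, adjusted p = 0.0638). It was also higher at 24 h in the KO#2-labelled libraries (1.92 ± 0.50, adjusted p = 0.00613), which had been lower than wt at 0 h (-1.28 ± 0.47, adjusted p = 0.0396). The 0 h call was lost without replicate 2 or 3 labelled KO#2 or without wt replicate 1 or 3 (differences of -1.37 to -0.88, adjusted p up to 0.175). The residual level was 2.69% ± 0.402 in the wt line, 13.7% ± 2.75 in KO#1 and 25.1% ± 13.1 in the KO#2-labelled libraries, the highest mean of the 7 factors that fell in both KO lines. Without KO#1 0 h replicate 3 the KO#1 mean was 10.2%, below those of Nanog (12.9%) and Esrrb (11.4%).

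Esrrb and Nr0b1 are orphan nuclear receptors that behaved differently. Esrrb (chr12:86361117-86521628), an activator of many naive genes, was at 1178, 703 and 936 CPM in wt libraries at 0 h and 65.4, 56.7 and 73.3 CPM at 24 h. In KO#1 it was at 747, 708 and 469.8 CPM and 72.8, 74.6 and 101 CPM. Under the KO#2 label it was at 451, 358 and 499 CPM and 105, 110.1 and 39.1 CPM. The 0 h values labelled KO#2 were below all wt values, and at 24 h the 3 lines overlapped. Esrrb changed over 24 h by -3.85 ± 0.37 on the log2 scale in the wt line (adjusted p = 6.83e-07), -2.95 ± 0.35 in KO#1 (adjusted p = 1.24e-05) and -2.36 ± 0.34 in the KO#2-labelled libraries (adjusted p = 1.10e-04). It was lower at 0 h in the KO#2-labelled libraries than in wt (-1.11 ± 0.33, adjusted p = 0.0154), a call lost without replicate 2 labelled KO#2 (-0.98, adjusted p = 0.0606) or wt replicate 1 (-0.94, adjusted p = 0.0583). The 24 h differences from wt were 0.35 ± 0.33 (adjusted p = 0.622) for KO#1 and 0.38 ± 0.33 (adjusted p = 0.381) for KO#2. The residual level was 6.93% ± 0.882 in the wt line, 12.9% ± 2.50 in KO#1 and 19.4% ± 9.09 in the KO#2-labelled libraries.

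Nr0b1 (chrX:86191764-86195947, also called Dax1) lacks a classical DNA-binding domain and acts through partner factors such as Pou5f1 and Esrrb. Its wt libraries gave 215, 201 and 216 CPM at 0 h and 142, 145 and 133 CPM at 24 h, with no overlap. KO#1 gave 120.3, 114 and 95.7 CPM and 113, 101 and 125 CPM, which overlapped. The KO#2-labelled libraries gave 128, 163 and 159.8 CPM and 143, 189 and 108 CPM, which overlapped as well. Nr0b1 changed over 24 h by -0.59 ± 0.22 on the log2 scale in the wt line (adjusted p = 0.0298), against 0.037 ± 0.21 (adjusted p = 0.905) in KO#1 and -0.034 ± 0.21 (adjusted p = 0.928) in the KO#2-labelled libraries. The wt call was lost without wt 0 h replicate 1 or 3 or without any 1 of the 3 wt 24 h replicates (-0.64 to -0.57, adjusted p up to 0.0772), and without a filter on low counts (adjusted p = 0.163). At 0 h Nr0b1 was lower in KO#1 than in wt (-0.94 ± 0.22, adjusted p = 0.0120), a call lost without KO#1 0 h replicate 3 (-0.84, adjusted p = 0.0555), with only the compared groups in the fit (adjusted p = 0.0919) and with scaling by library sizes alone (adjusted p = 0.206). Its 0 h difference from wt in the KO#2-labelled libraries was -0.49 ± 0.21 (adjusted p = 0.0804), and the values of the 2 groups did not overlap. DESeq2 called that difference (-0.54, adjusted p = 0.0251). At 24 h it differed from wt by -0.31 ± 0.21 (adjusted p = 0.454) in KO#1 and by 0.068 ± 0.21 (adjusted p = 0.827) in the KO#2-labelled libraries, a value that turned to -0.026 with only the compared groups in the fit. The residual level was 66.5% ± 2.80 in the wt line, 103% ± 10.7 in KO#1 and 97.7% ± 27.3 in the KO#2-labelled libraries, and with library sizes alone it was 43.2, 59.9 and 96.4%.

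Tfcp2l1 (chr1:118627945-118685168), a grainyhead family factor downstream of Stat3, was close to equal in the 3 lines before induction. Wt libraries held 1080.4, 912 and 1291 CPM at 0 h and 30.8, 29.5 and 30.0 CPM at 24 h. KO#1 libraries held 1410.0, 1054 and 904 CPM and 71.1, 66.2 and 70.4 CPM. KO#2-labelled libraries held 1370.1, 895 and 1406 CPM and 139, 138 and 43.8 CPM. At 24 h the 3 wt values were nearly equal, and all KO values lay above them, with replicate 3 labelled KO#2 the lowest of these. Tfcp2l1 changed over 24 h by -5.19 ± 0.40 on the log2 scale in the wt line (adjusted p = 1.01e-07), -4.02 ± 0.38 in KO#1 (adjusted p = 1.16e-06) and -3.52 ± 0.37 in the KO#2-labelled libraries (adjusted p = 4.58e-06). The 0 h differences from wt were 0.036 ± 0.34 (adjusted p = 0.970) for KO#1 and 0.16 ± 0.34 (adjusted p = 0.725) for KO#2. At 24 h it was higher than in wt in KO#1 (1.20 ± 0.34, adjusted p = 0.0303) and in the KO#2-labelled libraries (1.83 ± 0.35, adjusted p = 6.33e-04). The KO#1 call was lost with library sizes alone (1.17, adjusted p = 0.0902) and when any 1 of the 6 libraries compared, KO#1 24 h replicates 1 to 3 or wt 24 h replicates 1 to 3, was left out, although the difference remained at 1.22 to 1.26 (adjusted p up to 0.0908). The residual level was 2.75% ± 0.0621 in the wt line, 6.17% ± 0.236 in KO#1 and 8.75% ± 4.47 in the KO#2-labelled libraries. The genes overlapping Tfcp2l1 (Gm23497, Gm22094 and Gm28882) held at most 1 count in any library.

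Tbx3 (chr5:119670669-119684724), a T-box factor that sustains Nanog downstream of LIF and later acts in extraembryonic endoderm, showed the widest range of the 9. In wt libraries it dropped from 647, 339 and 573 CPM to 3.58, 3.31 and 2.59 CPM, the latter resting on 33 to 61 counts per library. KO#1 libraries went from 497, 412 and 276 CPM to 18.4, 11.3 and 12.5 CPM. KO#2-labelled libraries went from 322, 132 and 259 CPM to 42.6, 29.6 and 8.21 CPM. All 6 KO libraries at 24 h were above all wt libraries, and replicate 3 labelled KO#2 was below the KO#1 values. Tbx3 changed over 24 h by -7.36 ± 0.59 on the log2 scale in the wt line (164-fold, adjusted p = 1.36e-07), -4.81 ± 0.52 in KO#1 (28.0-fold, adjusted p = 4.18e-06) and -3.15 ± 0.48 in the KO#2-labelled libraries (8.86-fold, adjusted p = 1.48e-04). At 24 h it was 4.46-fold higher than wt in KO#1 (log2 difference 2.16 ± 0.49, adjusted p = 0.00706) and 8.47-fold higher in the KO#2-labelled libraries (3.08 ± 0.49, adjusted p = 1.69e-04), and neither call was lost without any 1 library. The 2 clones differed by 0.93 ± 0.45 (adjusted p = 0.117) at 24 h, KO#2 minus KO#1. At 0 h the difference from wt was -0.40 ± 0.44 (adjusted p = 0.668) in KO#1 and -1.13 ± 0.44 (adjusted p = 0.0522) in the KO#2-labelled libraries. The latter was called by DESeq2, with RLE factors, with protein-coding genes alone for scaling, with only the compared groups, without a filter on low counts, with the replicate block (-1.15, adjusted p = 0.0279) and without wt 0 h replicate 2 (-1.36) or replicate 1 labelled KO#2 (-1.41). The residual level was 0.608% ± 0.0978 in the wt line, 3.56% ± 0.954 in KO#1 and 11.3% ± 7.32 in the KO#2-labelled libraries. The antisense gene Tbx3os1 held 0 to 37 counts per library, and reads of the 2 genes cannot be told apart where the counting did not use strand.

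Zfp42 (chr8:43295063-43306980, minus strand), the zinc finger protein also called Rex1 and a widely used reporter of the naive state, was called different between the lines at both times. In wt libraries it was at 38.0, 46.0 and 43.6 CPM at 0 h and 42.6, 40.5 and 31.1 CPM at 24 h. In KO#1 libraries it was at 107, 106 and 149 CPM and 192, 153 and 106 CPM. In KO#2-labelled libraries it was at 123, 169 and 99.9 CPM and 64.2, 105 and 75.1 CPM. Every KO library at either time lay above every wt library. Over 24 h it changed by -0.16 ± 0.27 (adjusted p = 0.628) in the wt line, 0.32 ± 0.26 (adjusted p = 0.347) in KO#1 and -0.68 ± 0.26 (adjusted p = 0.0659) in the KO#2-labelled libraries. The change was called in the KO#2-labelled libraries with at least 10 counts in every library (-0.80, adjusted p = 0.0342), without their 0 h replicate 3 (-0.84, adjusted p = 0.0478) and without their 24 h replicate 2 (-0.91, adjusted p = 0.0355), and in wt cells with library sizes alone (-0.81, adjusted p = 0.0435). Zfp42 was higher than in wt at 0 h in KO#1 (1.50 ± 0.27, adjusted p = 0.00187) and in the KO#2-labelled libraries (1.61 ± 0.27, adjusted p = 3.88e-04), and again at 24 h in KO#1 (1.98 ± 0.27, adjusted p = 1.00e-04) and in the KO#2-labelled libraries (1.10 ± 0.27, adjusted p = 0.00400). None of these 4 calls was lost without any 1 library. At 24 h the KO#2-labelled libraries were lower than KO#1 (-0.88 ± 0.27, adjusted p = 0.0155), a call lost without KO#1 24 h replicate 1 (-0.70, adjusted p = 0.0734) or without replicate 1 (-0.73, adjusted p = 0.0792) or replicate 3 (-0.82, adjusted p = 0.0528) labelled KO#2. The sign turned when libraries were scaled by their sizes alone (0.26), which moved the median of all genes by 1.07 in that comparison. The 24 h level was 89.5% ± 14.3 of the 0 h mean in the wt line, 125% ± 35.5 in KO#1 and 62.4% ± 16.3 in the KO#2-labelled libraries, and with library sizes alone it was 57.1, 68.9 and 61.4%.

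Placed side by side, the residual levels of the 7 factors that fell were lowest in wt cells and highest in the KO#2-labelled libraries for each gene by their means. In wt cells they ran from 0.608% for Tbx3 to 6.93% for Esrrb, in KO#1 from 2.11% for Klf4 to 13.7% for Klf5, and in the KO#2-labelled libraries from 8.40% for Klf4 to 25.1% for Klf5. With scaling by library sizes alone the means kept that order of the lines for each of the 7, but those of wt cells (0.398% for Tbx3 to 4.69% for Esrrb) and KO#1 (1.26% for Klf4 to 8.23% for Klf5) were lower, while those labelled KO#2 ran from 8.35 to 24.8%. The KO#1 replicates of Klf2, Klf4, Klf5, Esrrb, Tfcp2l1 and Tbx3 were all above the wt replicates of the same gene, and those of Nanog overlapped them (16.8, 8.37 and 5.45% against 5.70, 3.95 and 2.49%). Within the KO#2 label, replicate 3 had the lowest residual of all 7 factors, such as 11.4, 11.3 and 3.58% for Tfcp2l1 and 12.6, 9.93 and 2.66% for Klf4 in order of the replicate numbers. The residual rests on 2 levels, so a lower 0 h level raises it as much as a higher 24 h level does. Without wt 0 h replicate 1 the wt mean was 3.55% for Klf5, 6.08% for Klf2 and 2.67% for Tfcp2l1, each outside its SD. Those of Nanog, Klf4, Esrrb and Tbx3 stayed within theirs. For Klf2 and Esrrb in the KO#2-labelled libraries the 0 h levels were called lower than wt and the 24 h levels were not called different, whereas for Nanog and Tfcp2l1 the 24 h levels were called higher and the 0 h levels were not called different. With library sizes alone the 24 h levels of Klf2 (1.43, adjusted p = 0.00575) and Esrrb (1.43, adjusted p = 0.00463) were called higher than wt and the 0 h level of Esrrb was not called. That scaling moved the median of all genes by 1.04 at 24 h and by 0.447 at 0 h, so these calls are not particular to the 2 genes.

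**Figure D2:**
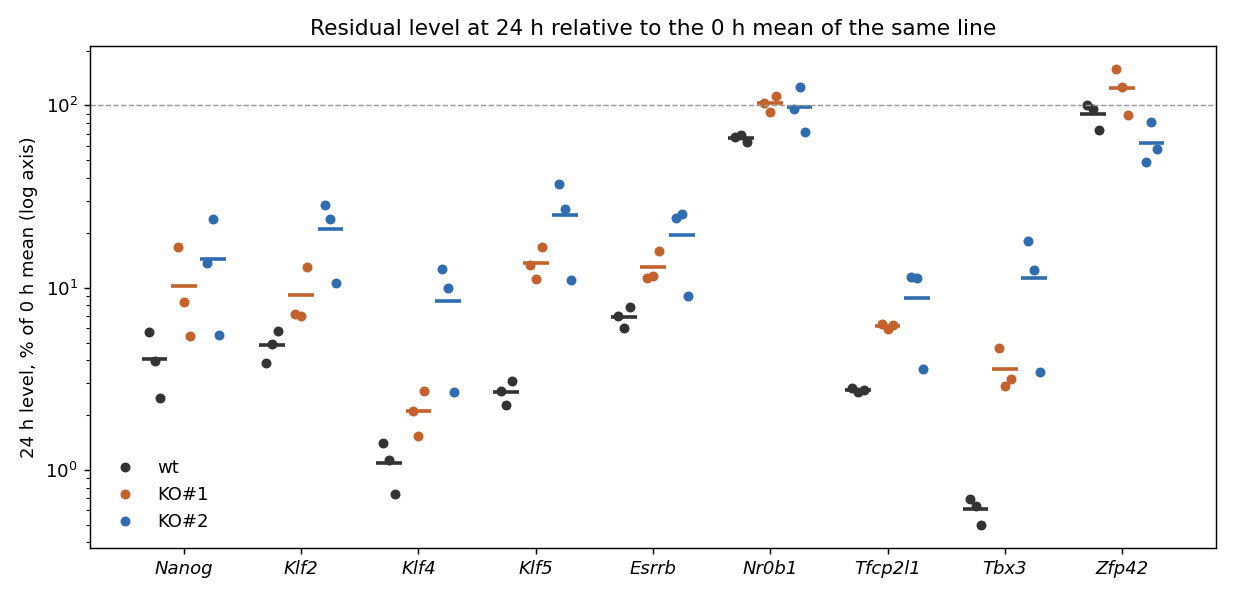
Residual level of each factor at 24 h (percentage of the mean 0 h CPM of the same line, log axis), with 3 replicates and a line at their mean for wt, KO#1 and the KO#2-labelled libraries. Nr0b1 and Zfp42 lie between 49.1 and 159% around the dashed line at 100%, and the other 7 factors sit at or below 37.1% in every replicate, with wt lowest by its mean.

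Before induction, 2 members differed between KO#1 and wt cells at the threshold used. They were Zfp42 among the 3.99% of all genes called higher and Nr0b1 among the 2.68% called lower. Between the KO#2-labelled libraries and wt, 5 members differed. Klf2, Klf4, Klf5 and Esrrb, 4 of 9, were lower, against 16.6% of all genes, and Zfp42, 1 of 9, was higher, against 21.5%. With scaling by library sizes alone, which moved the median of all genes by 0.447 in this comparison, the KO#2 differences of Klf4 (-0.61), Klf5 (-0.76) and Esrrb (-0.61) were not called, and with a minimum of 10 counts in every library those of Klf4 (-0.89) and Klf5 (-1.10) were not. DESeq2 called 7 members, Tbx3 and Nr0b1 being added. The number of members called was 2 without replicate 2 labelled KO#2 or wt replicate 1, 3 without replicate 3 labelled KO#2 or wt replicate 3, and 1 in KO#1 without its replicate 3. The 8 fibroblast genes gave 4 calls higher at 0 h in the KO#2-labelled libraries and 3 of 6 tested primitive endoderm markers were higher there. Against 289 to 402 CPM per library in wt, the summed level of the endoderm markers was 248 to 268 CPM there. Of the 4 pluripotent cell markers, Pou5f1 (-1.12 ± 0.25, adjusted p = 0.00284) and Sall4 (-1.32 ± 0.40, adjusted p = 0.0152) were lower there, with a median of -0.78 over the 4. The part of these markers in the differences was not tested.

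At 24 h, 5 of 9 members were higher in KO#1 than in wt (Nanog, Klf5, Tfcp2l1, Tbx3 and Zfp42), against 6.25% of all genes tested, and the only negative difference was that of Nr0b1. Without 1 library the count was 2 to 4, namely 3 without KO#1 24 h replicate 1, wt 24 h replicate 1 or wt 24 h replicate 3 and 2 without wt 24 h replicate 2. In KO#1 with library sizes alone it was 4. In the KO#2-labelled libraries, 6 of 9 were higher than in wt (Nanog, Klf4, Klf5, Tfcp2l1, Tbx3 and Zfp42), against 21.3% of all genes, and all 9 differences were positive. With library sizes alone, which moved the median of all genes by 1.04, all 9 were called, Klf2, Esrrb and Nr0b1 (1.14, adjusted p = 0.00497) being added. Without replicate 1 labelled KO#2, the library whose Hmga2 RNA goes against its label, 6 were called. The 2 comparisons share their wt libraries. Of 8 fibroblast genes, 1 was called higher and 1 lower in KO#1 than in wt at 24 h, and 6 were called higher in the KO#2-labelled libraries. There primitive endoderm markers were also higher in 5 of the 6 tested, Pou5f1 was lower (-0.76 ± 0.25) and Sox2 higher (0.83 ± 0.27). The summed level of the endoderm markers was nevertheless 138 to 231 CPM per library there, against 186 to 308 CPM in wt libraries at 24 h. The part of these markers in the results was not tested. Between the 2 KO clones the members called did not exceed the share over all genes. At 0 h Klf2 alone was lower in the KO#2-labelled libraries, 1 of 9 against 11.3% of all genes, and at 24 h Klf4 was higher, 1 of 9 against 19.3%, and Zfp42 lower, 1 of 9 against 16.1%.

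The 24 h response itself was then compared, as the difference between the 24 h change of a KO line and that of wt cells. In KO#1, none of the 9 responses differed from wt by edgeR's quasi-likelihood test, against 0.253% of all genes called in the positive direction. An unadjusted p under 0.05 was given by 3 members, and DESeq2 called 2. The largest difference was that of Tbx3 (2.55 ± 0.65, adjusted p = 0.0970), followed by Klf5 (2.35 ± 0.68, adjusted p = 0.168). In the KO#2-labelled libraries, 4 of 9 fell less than in wt, against 0.951% of all genes. They were Tbx3 (4.21 ± 0.66, adjusted p = 0.00551), Klf5 (3.21 ± 0.69, adjusted p = 0.0260), Klf4 (2.94 ± 0.62, adjusted p = 0.0231) and Klf2 (2.11 ± 0.51, adjusted p = 0.0447). Tfcp2l1 (1.67 ± 0.48, adjusted p = 0.0760), Esrrb (1.49 ± 0.47, adjusted p = 0.0938) and Nanog (1.82 ± 0.66, adjusted p = 0.125) did not pass the test by edgeR and were called by DESeq2.

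The number of responses called under the KO#2 label depended on single libraries. It was 7 without replicate 3 at 24 h labelled KO#2 and 3 without replicate 1 at 0 h of that label. It was 2 without wt 0 h replicate 1, wt 24 h replicate 1, wt 24 h replicate 3 or replicate 3 at 0 h labelled KO#2. It was 1 without wt 0 h replicate 3, wt 24 h replicate 2, replicate 2 at 0 h labelled KO#2 or replicates 1 or 2 at 24 h of that label. Tbx3 was the member called in each of these fits, with differences of 3.71 to 4.65. The differences of the others stayed positive, at 2.80 to 3.57 for Klf5, 2.54 to 3.37 for Klf4 and 1.77 to 2.43 for Klf2.

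**Figure D3:**
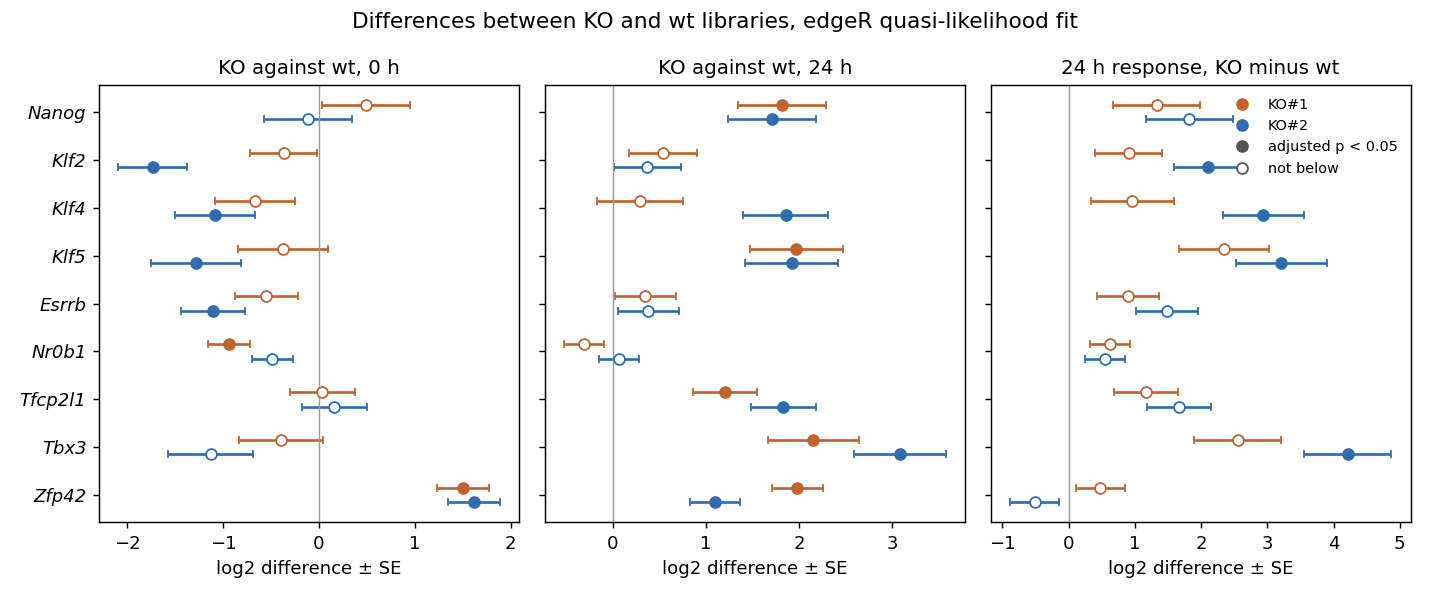
Log2 differences with their standard errors for the 9 factors, for KO#1 and the KO#2-labelled libraries against wt at 0 h and at 24 h, and for the difference of the 24 h response. Filled points have an adjusted p under 0.05 by edgeR's quasi-likelihood test. At 24 h the 6 filled KO#2 points lie between 1.10 and 3.08, and Klf2, Esrrb and Nr0b1 are open in both.

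The order of the factors changed on induction. Levels were compared between genes as CPM per kb of merged exon length. In wt libraries at 0 h Nanog was the highest (215 ± 34.9 CPM per kb, mean ± SD, n = 3), followed by Esrrb (155 ± 39.3), Klf2 (129 ± 53.8), Nr0b1 (116 ± 4.74), Tfcp2l1 (116 ± 20.1), Klf4 (104 ± 35.5), Tbx3 (78.5 ± 24.3), Klf5 (34.8 ± 16.3) and Zfp42 (22.6 ± 2.17). Neighbours overlapped between replicates at every step of that order. At 24 h the wt order was led by Nr0b1 (77.4 ± 3.26 CPM per kb), then Zfp42 (20.2 ± 3.24), Esrrb (10.8 ± 1.37), Nanog (8.69 ± 3.46), Klf2 (6.25 ± 1.22), Tfcp2l1 (3.19 ± 0.0720), Klf4 (1.14 ± 0.348), Klf5 (0.935 ± 0.140) and Tbx3 (0.477 ± 0.0767). Only Esrrb and Nanog, Nanog and Klf2, and Klf4 and Klf5 overlapped with their neighbours there. Zfp42 thus went from the last place to the second without a called change of its own. In KO#1 at 24 h Zfp42 (79.8 ± 22.7 CPM per kb) and Nr0b1 (62.4 ± 6.52) overlapped in the first places and Klf4 (1.38 ± 0.385) was last. In the KO#2-labelled libraries Nr0b1 (81.2 ± 22.7) was first and Klf4, Tbx3 and Klf5 overlapped at the end (4.13 ± 2.53, 4.05 ± 2.62 and 3.58 ± 1.87). With the longest transcript as the length, Esrrb came before Nanog in wt cells at 0 h and Klf5 before Klf4 at 24 h.

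**Figure D4:**
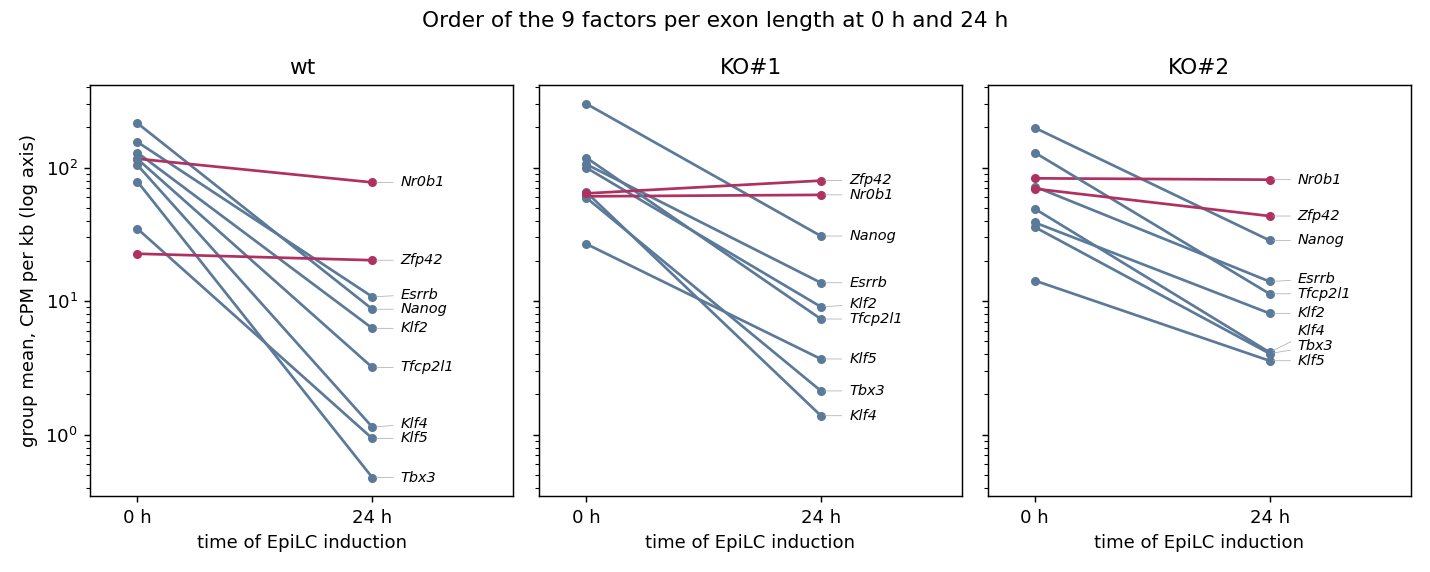
Group mean of each factor per exon length (CPM per kb, log axis) at 0 h and 24 h in the 3 lines, with Nr0b1 and Zfp42 drawn in red. The lines of the 7 falling factors end below those of Nr0b1 and Zfp42, which take the first 2 places at 24 h in each line.

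Across the 18 libraries the 7 falling factors moved together and the other two did not. The Pearson correlation of each member with the mean standardized log2 CPM of the other 8 was 0.986 for Tbx3, 0.981 for Tfcp2l1, 0.971 for Klf4, 0.960 for Esrrb, 0.952 for Klf5, 0.951 for Nanog and 0.929 for Klf2. It was 0.261 for Nr0b1 and 0.0666 for Zfp42. The points share the 2 time points, which set most of the spread. Of 10130 other genes with an average log2 CPM of at least 2, those closest to the mean profile of the 9 by Pearson correlation were Fads6 (0.988), Plagl1 (0.984) and Mapt (0.984). Plagl1, an imprinted zinc finger gene, was at 65.6 ± 23.6 CPM in wt libraries at 0 h and 0.762 ± 0.122 CPM at 24 h, and at 24 h stood at 2.91 ± 0.225 CPM in KO#1 and 4.05 ± 2.69 CPM in the KO#2-labelled libraries. The most opposite profiles were those of Epcam (-0.975), an epithelial adhesion gene, Zfp566 (-0.971) and Elp3 (-0.967). By Spearman correlation Fads6, Plagl1 and Mapt ranked 8.5, 84.5 and 53, and Epcam, Zfp566 and Elp3 ranked 10108, 10105 and 10061, so the leading genes depended on the measure. Epcam was at 33.1 ± 2.97 CPM in wt libraries at 0 h and 232 ± 29.3 CPM at 24 h.

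Other genes of the naive state fell with the factors in part. Of 12 such genes, 8 fell and 1 rose in wt cells, 7 fell and 1 rose in KO#1, and 8 fell and 1 rose in the KO#2-labelled libraries. Of all genes tested, 24.7% fell and 26.0% rose in wt cells, 20.6% and 20.1% in KO#1, and 13.3% and 12.7% in the KO#2-labelled libraries. The gene that rose in each was Gbx2, a homeobox gene that is also expressed in the post-implantation epiblast (1.92 ± 0.45 in wt cells). Prdm14, a repressor of FGF signalling and DNA methylation in naive cells, fell by 5.97 on the log2 scale in wt cells, and at 24 h it was higher than in wt in KO#1 (2.26 ± 0.57, adjusted p = 0.0152) and in the KO#2-labelled libraries (2.47 ± 0.56, adjusted p = 0.00237). At 24 h 4 of the 12 were higher and 1 lower in KO#1 than in wt, with a median log2 difference of 0.90 against -0.017 over all genes, of which 6.25% were called higher and 3.61% lower. In the KO#2-labelled libraries 6 were higher and 2 lower, with a median of 0.62 against 0.20 over all genes, of which 21.3% were called higher and 16.0% lower. Tdh, the threonine dehydrogenase typical of mouse pluripotent cells, gave a difference of -1.33 ± 0.26 in KO#1 and of -1.98 ± 0.26 in the KO#2-labelled libraries.

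Among the 13 tested of 14 other Klf genes, 9 fell and 1 rose in wt cells, 8 fell and 1 rose in KO#1, and 6 fell and 2 rose in the KO#2-labelled libraries, against 24.7, 20.6 and 13.3% of all genes that fell and 26.0, 20.1 and 12.7% that rose. At 24 h 2 of them (Klf6 and Klf15) were higher in KO#1 than in wt, against 6.25% of all genes, and 6 were higher in the KO#2-labelled libraries, against 21.3%. Klf15 differed by 2.51 ± 0.37 (adjusted p = 1.82e-04) in KO#1 and by 3.14 ± 0.36 (adjusted p = 8.89e-06) in the KO#2-labelled libraries. For the upstream signals, all of Lifr and Il6st, the LIF receptor subunits, Socs3, a Stat3 target, and Tcf7l1, the repressor relieved by GSK3 inhibition, fell in wt cells, 3 of these 4 fell in KO#1 and 2 in the KO#2-labelled libraries. At 24 h Lifr (1.73 ± 0.36) and Il6st (1.17 ± 0.23) were higher in the KO#2-labelled libraries than in wt.

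The general factor Sox2 fell in all 3 lines (-2.37 ± 0.28 in the wt line, -1.44 ± 0.27 in KO#1 and -1.10 ± 0.27 in the KO#2-labelled libraries), Sall4 fell in wt cells (-1.88 ± 0.40), and Pou5f1 changed by 0.30 ± 0.25 in wt cells without passing the test. Of 7 factors tied to the exit from the naive state, 2 rose and 1 fell in wt cells, 1 rose and 1 fell in KO#1, and 2 rose in the KO#2-labelled libraries, where 24.7 (wt), 20.6 (KO#1) and 13.3% (KO#2) of all genes fell and 26.0, 20.1 and 12.7% rose. Otx2, which directs the formative programme, rose in each (3.46 ± 0.53 in wt cells). Of 8 formative genes 7 rose in each line, all but Zic2, against 26.0% (wt), 20.1% (KO#1) and 12.7% (KO#2) of all genes. An example is Fgf5 with a log2 change of 5.71 ± 0.81 in the wt line, 5.76 ± 0.88 in KO#1 and 5.98 ± 0.74 in the KO#2-labelled libraries. At 24 h 4 of the 8 (Dnmt3a, Lef1, Sox3 and Pou3f1) were lower in KO#1 than in wt, against 3.61% of all genes, and 2 (Sox3 and Pou3f1) in the KO#2-labelled libraries, against 16.0%. Pou3f1, the neural and epiblast POU factor, differed by -2.25 ± 0.35 (adjusted p = 3.56e-04) in KO#1 and by -2.26 ± 0.35 (adjusted p = 1.29e-04) in the KO#2-labelled libraries. Already at 0 h, 2 of the 8 (Sox3 and Pou3f1) were lower and 1 higher in KO#1 than in wt, against 2.68 and 3.99% of all genes. In the KO#2-labelled libraries at 0 h, 3 were lower and 1 higher, against 16.6 and 21.5%. The 24 h response was called different from wt for 0 of the 8 in either KO line, where 0.138% (KO#1) and 0.517% (KO#2) of all genes were called lower. Trophectoderm markers gave 1 call higher, Eomes, of 5 tested in each KO against wt comparison at 24 h, against 6.25% of all genes in KO#1 and 21.3% in the KO#2-labelled libraries, a share like that of the markers. Primitive endoderm markers gave 2 higher of 6 tested in KO#1, against the same 6.25%, and none of the 3 mesoderm markers had enough counts to be tested.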

How the data were processed

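RNA-seq gene counts from 18 libraries were analysed. Per the study's methods, stranded total RNA libraries were sequenced as paired ends, and the authors trimmed reads with Trim Galore, aligned them to GRCm38 with STAR and quantified genes with Salmon and StringTie in an nf-core pipeline, and they named DESeq2 for their own comparisons. The authors deposited whole-number counts for 45706 genes of an Ensembl annotation. Whether counting used strand is not given in the sources used here. The table came with symbols, and 45143 of the gene IDs were found in GENCODE vM21, which gave positions and exon lengths.

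Genes with enough counts (edgeR filterByExpr, minimum count 10) numbered 16619. Counts were scaled by TMM and fitted with edgeR 4.0.16 (glmQLFit and glmQLFTest, R 4.3.3) over all 6 groups, with no replicate block. All 3 same-numbered pairs deviated together only in wt and KO#1 at 24 h, with correlations of 0.480, 0.223 and 0.587. Some single pairs of other groups did too, and the labels do not say what a number shares. The p-values were Benjamini-Hochberg adjusted over all genes tested, at a threshold of 0.05. Log2 CPM used a prior count of 2. Totals of 3466436 to 23872837 counts make 3 counts equal to 0.116 to 0.984 CPM, which covers counting error only. All libraries were checked for duplicates, and 0 of the 153 pairs among them held identical values. The fitting steps were tested on simulated counts.

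Named genes were the 9 members in order of their roles, Hmga2, genes of the lists (12 other naive genes, 3 general pluripotency factors, 4 LIF and Wnt inputs, 7 exit factors, other Klf genes, 8 formative genes, and markers of fibroblasts, pluripotent cells, primitive endoderm, trophectoderm and mesoderm), and the 3 genes with the highest and the 3 with the lowest correlation to the mean standardized member profile. Members and lists were chosen with earlier results of these data known. Alternatives were library sizes alone, RLE factors, scaling on protein-coding genes, 2 other count filters, only the groups compared, 2 other thresholds, DESeq2 1.42.0, the replicate number as a block, each library left out, and the longest transcript as length. Figures were drawn with matplotlib. The sequences of the Klf proteins were not analysed here.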

Additional observations from a re-analysis of the deposited data

Results flagged for a closer look

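The 24 h change of 4 factors differed between the libraries labelled KO#2 and wt cells by the test of the difference itself (edgeR's quasi-likelihood test, 24 h response of KO#2 minus that of wt, log2 scale). The difference was 4.21 ± 0.66 for Tbx3 (adjusted p = 0.00551), 3.21 ± 0.69 for Klf5 (adjusted p = 0.0260), 2.94 ± 0.62 for Klf4 (adjusted p = 0.0231) and 2.11 ± 0.51 for Klf2 (adjusted p = 0.0447). Over 10 alternative settings that kept every library, the adjusted p was 2.70e-15 to 0.0133 for Tbx3, 3.08e-10 to 0.0285 for Klf5, 3.33e-08 to 0.0384 for Klf4 and 1.05e-04 to 0.0526 for Klf2, the last of which missed 0.05 with only the groups compared in the fit. When each of the 12 libraries was left out in turn, the difference was still called in 12 fits for Tbx3, 6 for Klf4, 4 for Klf5 and 2 for Klf2, with adjusted p up to 0.0206, 0.0793, 0.0812 and 0.133. Hmga2 RNA in replicate 1 at 24 h labelled KO#2 (10.5 CPM) was above the wt libraries of that time, while the other two (3.02 and 3.48 CPM) were below them, and without that library only Tbx3 was called. In the KO#2-labelled libraries at 24 h the share of counts in protein-coding genes and the fibroblast gene levels were higher than in wt libraries, and their part in the differences was not tested.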

How the results depend on the processing

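Of 1710 values of single members under alternative settings, 1543 kept their direction and their side of the threshold, 86 fell short of it, 43 newly passed it and 38 changed sign, and the cause was not tested. The count of factors that fell was 7 in KO#1 under every setting run, 7 or 8 in KO#2, and 7 to 9 in wt cells, where it was 9 with library sizes alone. Depth limits Klf4, Klf5 and Tbx3 in wt libraries at 24 h, at 33 to 90 counts, and Klf4 in KO#1 at 24 h, at 30 to 87. Scaling by library sizes alone moved the median of all genes by 1.04 for KO#2 against wt at 24 h, by 0.447 at 0 h, by -0.613 for the wt time change and by -0.788 for that of KO#1. It moved the median by 1.07 between the KO clones at 24 h, by 0.312 between them at 0 h and by 0.587 for the KO#2 response. Scaling moves all genes of a library alike, so calls and signs that change under it are not particular to the members. Other scalings moved the median by less than 0.1.

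Counts of members called moved as follows. For the response of KO#1 it was 0 in the report, 2 by DESeq2, 2 without a filter and 1 with only the groups compared. For the response of KO#2 it was 4, against 1 at an adjusted p under 0.01, 7 by DESeq2, 7 with library sizes alone, 7 without a filter, 3 with only the groups compared and 1 to 7 without 1 library. For KO#1 against wt it was 2 at 0 h, against 1 with a log2 fold change of at least 1, at 0.01, with library sizes alone or with only the groups compared, and 1 to 2 without 1 library. At 24 h it was 5, against 2 at 0.01, 4 with library sizes alone and 2 to 4 without 1 library. For KO#2 against wt at 0 h it was 5, against 2 at 0.01, 3 with at least 10 counts in every library, 2 with library sizes alone, 7 by DESeq2, 6 without a filter, with only the groups compared, with RLE factors or with protein-coding genes, and 2 to 6 without 1 library. At 24 h it was 6, against 9 with library sizes alone and 5 to 6 without 1 library. Between the KO clones at 0 h it was 1, against 0 at 0.01, 2 with at least 10 counts in every library, 0 with library sizes alone, 2 without a filter and 1 to 2 without 1 library. Between them at 24 h it was 2, against 1 with a log2 fold change of at least 1, 0 at 0.01, 6 with library sizes alone, 3 without a filter and 0 to 3 without 1 library.

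With library sizes alone, the median of all genes moved by 1.07 for KO#2 against KO#1 at 24 h. Signs turned there in Klf2 (0.86), Klf5 (1.02), Nanog (1.07) and Zfp42 (0.26). With the same scaling signs turned for Nanog in KO#2 against wt at 0 h (0.33, median moved by 0.447). Signs also turned for the KO#1 time change of Nr0b1 (-0.74) and Zfp42 (-0.54), with the median moved by -0.788, and for the KO#2 response of Zfp42 (0.11, median moved by 0.587). With at least 10 counts in every library they turned for Klf5 between the KO clones at 24 h (0.078), Nanog in KO#2 at 0 h (0.075) and the KO#1 time change of Nr0b1 (-0.014), with protein-coding genes alone for Klf5 between the clones at 24 h (0.013) and the KO#2 time change of Nr0b1 (0.015), and with only the groups compared for Esrrb between the clones (-0.041) and Nr0b1 in KO#2 at 24 h (-0.026). Without 1 library the log2 differences between the KO clones at 24 h ran from -0.20 to 0.38 for Esrrb, -0.45 to 0.16 for Klf2, -0.43 to 0.31 for Klf5 and -0.69 to 0.42 for Nanog. At 0 h between the clones they ran from -0.0069 to 0.32 for Tfcp2l1 and -0.11 to 0.30 for Zfp42, in KO#1 against wt from -0.71 to 0.062 for Klf5 and -0.16 to 0.17 for Tfcp2l1, and in KO#2 against wt from -0.29 to 0.036 for Nanog. For Nr0b1 they ran from -0.050 to 0.11 over time in KO#1, -0.26 to 0.15 over time in KO#2 and -0.16 to 0.26 in KO#2 against wt at 24 h.

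Same-numbered libraries of different groups gave a mean correlation of their deviations of 0.0531 over 45 pairs (-0.255 to 0.587), against -0.0266 for different numbers (-0.591 to 0.361). In 1 of the 15 pairs of groups, wt and KO#1 at 24 h, all 3 same-numbered pairs deviated together (0.480, 0.223 and 0.587, against at most 0.0962 for different numbers), and in the other 14 not all 3 did. For KO#2 at 0 h and at 24 h the values were 0.457, 0.333 and -5.5e-04, against at most 0.361 for different numbers. A replicate block within wt and KO#1 at 24 h, chosen after seeing the data, changed no call of a member for KO#1 against wt at 24 h (5 called, adjusted p up to 0.0403) or for the response of KO#1 (0 called). With the replicate block over all groups 6 members were called for KO#2 against wt at 0 h instead of 5, Tbx3 being the one added (-1.15, adjusted p = 0.0279), and no other count of members changed.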
